A study of Mus musculus with 32 samples.

Results

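The question addressed was how a high-fat diet altered gene expression in the liver of male mice whose mothers had eaten a low-protein diet in pregnancy. The 8 arrays were chosen by their labels, from 32 arrays in the series, and were the male arrays of mothers on 9% protein: 4 of offspring on a high-fat diet and 4 of offspring on a control diet. The mice were C57bl/6J OlaHsd males, and whole liver was sampled at 20 weeks of age. Both groups were born to mothers on the low-protein diet (9%, 90 g casein per kg) during gestation, so the controls carried the maternal treatment as well. From 6 weeks of age and for 14 weeks the offspring ate either the high-fat diet, with 36% of the fat that the labels abbreviate SF, or the control diet. The other male groups, used only to set these results in context, had the same design with mothers on the 18% control diet. The labels call the arrays of a group biological replicates and give no litters. Littermates in a group, if there were any, would make the p-values smaller than they should be.

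The liver takes up dietary fatty acids and burns them in mitochondria and peroxisomes, exports them on lipoproteins, or stores them as triglyceride in lipid droplets. Droplets are coated by proteins of the perilipin and CIDE families, and the CIDE proteins help small droplets to merge into large ones. The nuclear receptor PPAR alpha switches on oxidation genes in the fed-fat and fasted liver, and PPAR gamma, which is sparse in lean liver, switches on droplet and storage genes. A low-protein diet in pregnancy is a common model of how maternal nutrition affects the metabolism of adult offspring.

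Biotin-labelled liver RNA was hybridised to bead arrays that carry probes for 24613 transcripts, and 12173 probes passed a filter on detection, a p-value set by the scanner software from negative control beads. With the brightest probe taken for each gene, 10295 features were tested, of which 8838 had a gene name and 1457 had none. Mean deposited intensity per array was 278 ± 20.9 (SD, n = 4) in the controls and 252 ± 26.0 in the high-fat group, and the groups overlapped (exact permutation test, two-sided, p = 0.286, where the smallest possible p is 0.0286). Pairs of the 8 arrays correlated at 0.967 to 0.988 across features. All 16 male arrays detected the Y-linked gene Eif2s3y and 0 of 16 female arrays did. Of the 19 hepatocyte markers listed, 14 were measured, and their summed level ran from 111361 to 115214 in the controls and from 109419 to 113285 in the high-fat group.

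A small set of genes rose on the high-fat diet, and the largest rises were those of an unnamed probe and the droplet proteins Cidec and Cidea. The steroid enzyme Cyp17a1, the lipoprotein gene Apoa4, the glutathione enzymes Gpx6 and Gstt3, the droplet-forming protein Fitm1, Lamb3 and Copz2 also rose. Only 1 gene, the plasma protein Itih3, fell. In all, limma called 11 features at a Benjamini-Hochberg adjusted p under 0.05, which was 0.107% of the features tested. Of these, 10 rose (0.0971%) and 1 fell (0.00971%), and for all 11 the 4 high-fat values lay entirely on one side of the 4 control values. Complete separation of the groups was found for 7.63% of all features, 3.29% with the high-fat group higher and 4.34% with it lower. An unadjusted p under 0.05 was found for 10.1% of features, 4.66% higher and 5.43% lower. A change of more than 2-fold was found for 64 features (0.622%), of which 48 were higher and 9 were called. The median change over all features was -0.02 on the log2 scale, and 46.4% of features had a change above 0. In bulk liver a change in the number of cells of a type and a change in RNA per cell cannot be told apart.

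The number of calls depended on which arrays were fitted. The main fit shared its estimate of spread with the arrays of mothers on 18%, and what part this had in the number was not tested. Fitted on the 8 arrays of mothers on 9% alone, limma called 1 feature, an unnamed probe. Leaving out control replicate 2, control replicate 4 or high-fat replicate 2 each left 7 calls, and leaving out control replicate 3 gave 22. All 11 features kept their direction under each of the 21 alternatives tried. The call held with any 1 array left out for Cidec, Fitm1, Lamb3, Gstt3 and the unnamed probe, and was lost in some of these fits for the other 6. Medians of gene lists were less stable: of 43 lists, 36 had a median that moved by over 1.5 times or turned in sign without some 1 array, and in 14 the sign turned.

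**Figure D1:**
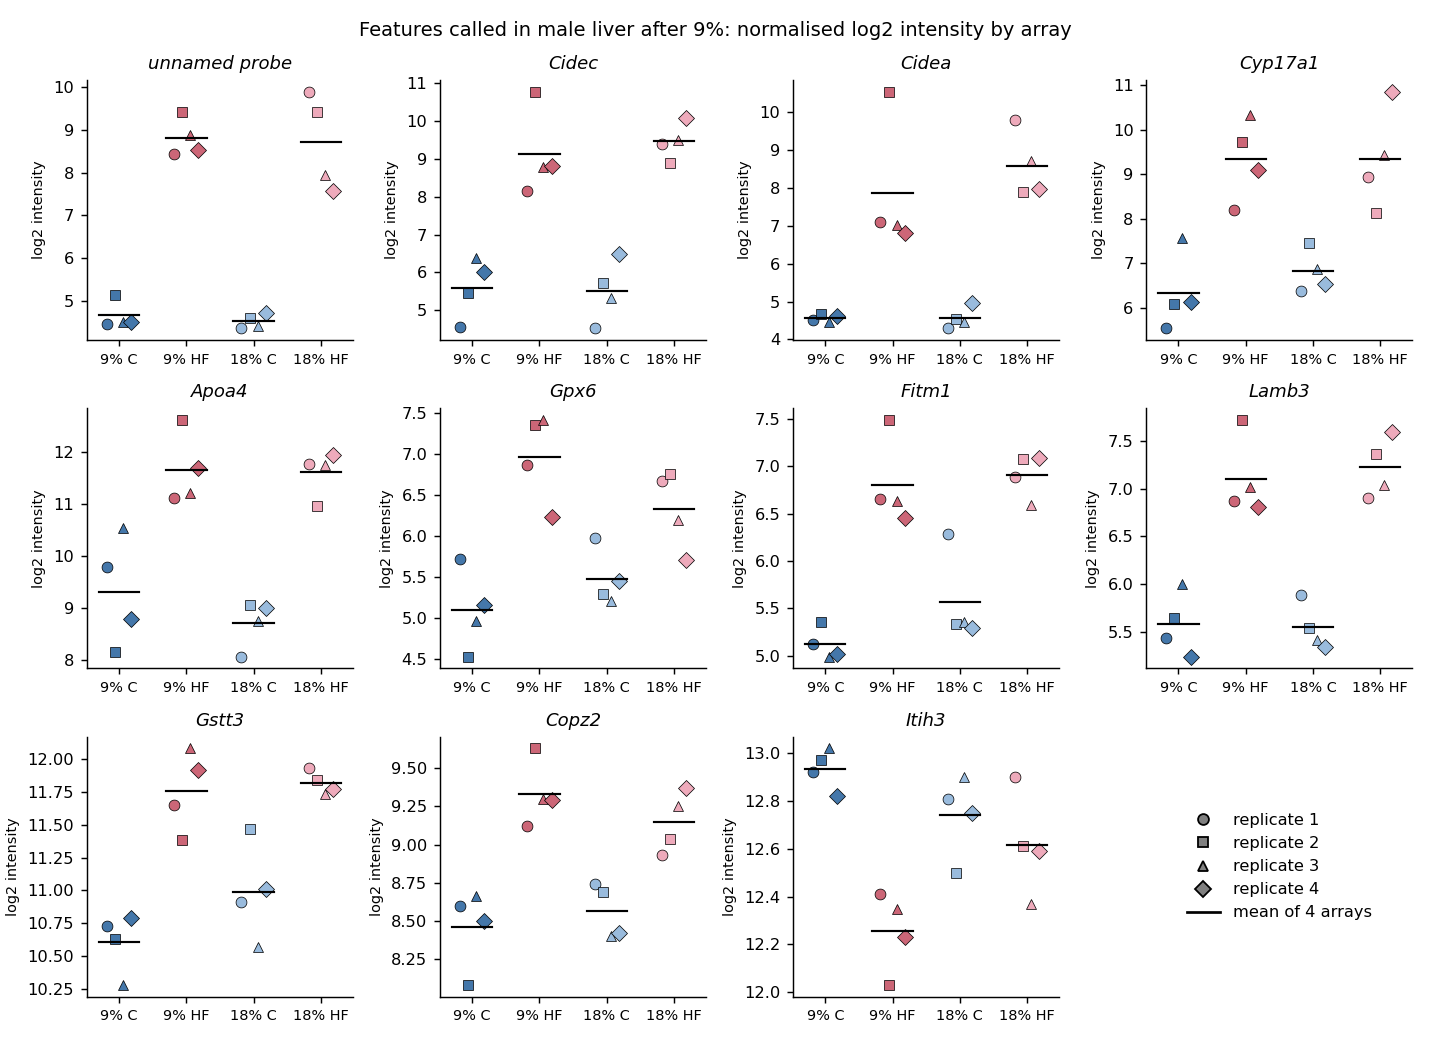
Normalised log2 intensity (vertical axes, which start above 0 and differ between panels) of the 11 called features on each male array, by group: mothers on 9% or 18% protein, offspring on control (C) or high-fat (HF) diet. Points are arrays, marked by replicate number, and bars are means of 4 arrays; after 9% no high-fat point overlaps a control point in any panel.

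Lipid droplet genes held the largest named rises. Cidec (chromosome 6), a droplet protein that drives fusion of droplets, had normalised log2 intensities of 4.55, 5.46, 6.39 and 6.00 on the control arrays and 8.16, 10.78, 8.78 and 8.82 on the high-fat arrays. It was detected on 3 of 4 control arrays and on all 4 high-fat arrays. The lowest high-fat value exceeded the highest control value, and high-fat replicate 2 stood above the other three. The rise was 11.6-fold, or 3.54 ± 0.51 (SE) on the log2 scale, with an adjusted p of 0.00666 from limma.

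Cidea (chromosome 18), the CIDE family member best known from brown fat, gave 4.52, 4.67, 4.47 and 4.63 on the control arrays, none of which detected it, and 7.11, 10.54, 7.02 and 6.81 on the high-fat arrays. The groups were far apart, and high-fat replicate 2 was again the highest. Because the control level was below detection the rise is a bound, at least 8.38-fold (limma adjusted p = 0.0443). The fitted change of Cidea was 2.41 without high-fat replicate 2, against 3.30 with it. The call was lost when any 1 of the 4 controls was left out (limma adjusted p = 0.0549 to 0.11).

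Fitm1 (chromosome 14), an endoplasmic reticulum protein that helps droplets to form, gave 5.12, 5.36, 4.99 and 5.02 on the control arrays and 6.65, 7.49, 6.63 and 6.45 on the high-fat arrays. Its control values were tight and its high-fat values separate, with a rise of 3.21-fold (log2 1.68 ± 0.24, limma adjusted p = 0.00666).

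Of 20 droplet genes listed, 19 were measured: 3 rose, 0 fell, 16 had a change above 0, and the median change was 0.35 on the log2 scale against -0.02 over all features. A further 4 had a positive change and an unadjusted p under 0.05, which makes 7 of 19. These 4 were Fitm2, a relative of Fitm1 (0.69 ± 0.18, limma adjusted p = 0.176), Plin4 (1.18 ± 0.48, adjusted p = 0.409), Plin2 (0.54 ± 0.20, adjusted p = 0.362) and Cideb (0.35 ± 0.15, adjusted p = 0.415). Plin2, the main droplet coat of hepatocytes, gave 12.20, 11.90, 12.38 and 12.01 on the control arrays and 12.70, 12.98, 12.24 and 12.72 on the high-fat arrays, and the groups overlapped. The triglyceride lipase Pnpla2 and its activator Abhd5 had changes of 0.03 and -0.02. G0s2, an inhibitor of that lipase, varied widely in both groups, at 9.19, 9.31, 9.35 and 6.30 against 10.20, 7.19, 11.20 and 10.63. Of 12 adipocyte markers, 4 were measured: Plin4, Lipe, Car3 and Pck1. Their summed level was 13122 to 16611 in the controls and 16247 to 17114 in the high-fat group. Nearly all of this sum came from Car3 and Pck1, because Plin4 and Lipe reached log2 levels of only 7.78 and 5.39. Pck1 was also among the hepatocyte markers listed, so the sum is not specific to adipocytes. The adipocyte markers Adipoq, Lep, Retn, Plin1, Fabp4 and Slc2a4 were on the array but below the detection filter.

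The upstream sequences of Cidec and Fitm1 are shown because these droplet genes rose together, and those of Gstt3 and Gpx6 because both are glutathione-dependent enzymes that rose. Each is the 250 bases before the annotated start, on the strand of the gene, from RefSeq on GRCm38.p6. Of the 10 called genes with a name, 8 had a listed promoter that was searched, and Cidea and Cyp17a1 were not searched. Capitals mark matches on either strand to TGACG, the core of CREB-type sites, and to CCAAT, a common promoter element. The positions are chr6:113435761-113436010 for Cidec (minus strand, the first of its 2 listed starts), chr14:55575424-55575673 for Fitm1 (plus strand), chr10:75781423-75781672 for Gstt3 (minus strand, the first of 2) and chr13:21311953-21312202 for Gpx6 (plus strand).
Cidec: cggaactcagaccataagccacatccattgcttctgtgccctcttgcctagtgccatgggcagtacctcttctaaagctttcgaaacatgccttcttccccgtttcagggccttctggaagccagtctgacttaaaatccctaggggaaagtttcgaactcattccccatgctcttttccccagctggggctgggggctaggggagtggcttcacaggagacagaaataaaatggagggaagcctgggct
Fitm1: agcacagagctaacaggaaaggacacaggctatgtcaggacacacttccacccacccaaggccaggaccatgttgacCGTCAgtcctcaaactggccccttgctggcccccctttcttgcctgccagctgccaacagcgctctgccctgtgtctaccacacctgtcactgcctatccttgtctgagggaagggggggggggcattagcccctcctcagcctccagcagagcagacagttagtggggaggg
Gstt3: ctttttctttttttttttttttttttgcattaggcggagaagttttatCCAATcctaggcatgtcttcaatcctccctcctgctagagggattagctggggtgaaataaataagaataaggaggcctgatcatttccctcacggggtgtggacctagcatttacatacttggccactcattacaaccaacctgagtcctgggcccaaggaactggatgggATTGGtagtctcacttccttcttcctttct
Gpx6: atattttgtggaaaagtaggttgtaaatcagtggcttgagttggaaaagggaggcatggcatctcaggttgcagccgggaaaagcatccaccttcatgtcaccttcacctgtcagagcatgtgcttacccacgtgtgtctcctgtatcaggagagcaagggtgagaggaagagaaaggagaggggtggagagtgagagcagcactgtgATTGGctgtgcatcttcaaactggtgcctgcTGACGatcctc

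AGGTCA, the half-site of nuclear receptors, was found in 0 of the 8 windows and in 14.0% of all 32851 listed promoters, and TATAAA in 0 of 8 and 12.4%. TGACG was found in 2 of 8 (Fitm1 and Gpx6) and in 17.8% of all promoters, and CCAAT in 2 of 8 (Gpx6 and Gstt3) and in 33.8%. The 4 motifs do not overlap in these windows. A match describes letters in the window and does not show a bound site.

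In the lists of lipid synthesis and oxidation 0 genes were called, and most members had a change above 0. In triglyceride synthesis 10 of 11 measured genes had a change above 0, with a median of 0.13 (0.21 without control replicate 3), and 0 were called. Mogat1, which makes diacylglycerol from monoacylglycerol, gave 4.42, 4.85, 4.36 and 4.33 on the control arrays, none detected, and 5.52, 7.23, 5.06 and 5.76 on the high-fat arrays. The groups did not overlap, and the difference was at least 2.13-fold (limma adjusted p = 0.227). Agpat2, which adds the middle acyl chain, had a change of 0.58 ± 0.24 with an adjusted p of 0.429.

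Pparg, the gene for PPAR gamma, gave 6.04, 7.41, 6.81 and 5.93 on the control arrays and 7.83, 8.43, 7.80 and 7.59 on the high-fat arrays with its brightest probe. The groups did not overlap, and the change of 1.37 ± 0.30 had a limma adjusted p of 0.0900. Its 2 dimmer probes had changes of 1.46 ± 0.20 (adjusted p = 0.00478 when all 12173 probes were tested) and 1.14 ± 0.21 (adjusted p = 0.0376), so the call depended on the probe. The mean control log2 intensities of these dimmer probes were 4.76 and 4.32, near background, which limits how well their change and spread can be measured.

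Fatty acid oxidation was measured in both organelles. Of 15 peroxisomal and omega oxidation genes, 12 had a change above 0 (median 0.32), and 7 of these had an unadjusted p under 0.05, while 1 gene, the carnitine transferase Crot, had one in the other direction. Pex11a, which makes peroxisomes divide, gave 9.76, 10.49, 10.19 and 9.67 on the control arrays and 10.56, 11.03, 10.55 and 10.90 on the high-fat arrays. These groups did not overlap, and the change was 0.73 ± 0.19 (limma adjusted p = 0.172). The thiolases Acaa1a and Acaa1b had changes of 0.45 and 0.41.

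Cyp4a14, a fatty acid omega-hydroxylase and a classical PPAR alpha target, did not separate the groups. Its values were 9.39, 13.48, 13.26 and 10.06 on the control arrays and 11.86, 13.10, 12.65 and 13.13 on the high-fat arrays. Control replicates 2 and 3 were above every high-fat array, while control replicates 1 and 4 were low. In the control males of mothers on 18% all 4 values were low, at 9.86, 9.38, 8.95 and 10.05. The change after 9% was 1.13 ± 0.69 (limma adjusted p = 0.620) and after 18% was 2.99 ± 0.69 (adjusted p = 0.0666).

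In mitochondrial fatty acid oxidation 15 of 16 genes had a change above 0, 4 with an unadjusted p under 0.05 and 0 called. The median was 0.14, and 0.23 or 0.22 without control replicate 1 or 2. Hadh, which oxidises the hydroxyacyl intermediate, gave 8.76, 7.22, 8.97 and 7.98 on the control arrays and 9.39, 9.42, 9.24 and 9.13 on the high-fat arrays. The high-fat values were closely grouped and above every control value, with a change of 1.06 ± 0.27 (limma adjusted p = 0.166). A second probe of Hadh had a change of only 0.26 ± 0.22 (adjusted p = 0.703 over all probes), so the size of the change depended on the probe. Eci1 (0.44 ± 0.12), Acadm (0.37 ± 0.13) and Echs1 (0.30 ± 0.11), enzymes of the same spiral, had adjusted p-values of 0.220 to 0.362. Among the acyl-CoA thioesterases, which release free fatty acids, 9 of 10 had a change above 0, with a median of 0.34 that was 0.20 without control replicate 4 and 0.22 without high-fat replicate 3.

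In oxidative phosphorylation 56 of 58 measured genes had a change above 0, but the median was 0.11 (0.06 without control replicate 1 and 0.17 without control replicate 2), 11 had an unadjusted p under 0.05, and 0 were called. The complex I subunit Ndufs5 gave 10.72, 10.95, 11.19 and 11.04 on the control arrays and 11.29, 11.77, 11.32 and 11.68 on the high-fat arrays, with no overlap, a change of 0.54 ± 0.14 and a limma adjusted p of 0.176. The median deviation of the list from the control mean ranged from -0.16 to 0.14 over the control arrays and from 0.02 to 0.21 over the high-fat arrays, which overlap. In the males of mothers on 18% the list's median was -0.0048, with 27 of 58 above 0, but 0 genes were called for a difference between the maternal diets. In females of mothers on 9% it was 0.26, with 55 of 57 above 0.

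Fatty acid synthesis genes had a median change of 0.29, which was 0.14 without control replicate 2, with 15 of 17 above 0, 6 with an unadjusted p under 0.05 and 0 called. Fads2, the delta-6 desaturase, gave 9.71, 9.02, 11.07 and 9.13 on the control arrays and 10.91, 11.23, 11.32 and 10.60 on the high-fat arrays. Control replicate 3 lay within the high-fat range, and the change was 1.28 ± 0.34 (limma adjusted p = 0.191). Fasn, the fatty acid synthase, had a change of 0.17 ± 0.27 (adjusted p = 0.880), and its sign turned when control replicate 2, the lowest array at 10.96, was left out. Scd1, the stearoyl-CoA desaturase, had a change of 0.29 ± 0.13 (adjusted p = 0.471).

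Cholesterol synthesis and sterol sensing genes had the larger median, 0.40, with 19 of 21 above 0 but only 1 with an unadjusted p under 0.05. That gene was Ebp, a sterol isomerase, with 11.57, 11.61, 11.58 and 11.56 on the control arrays and 12.12, 12.26, 12.04 and 12.03 on the high-fat arrays. Both groups were tight and separate, and the change of 0.53 ± 0.12 had a limma adjusted p of 0.0900. The list's median deviation varied over the controls from -0.39 (replicate 3) to 0.31 (replicate 1), and its median change was 0.22 without control replicate 3 and 0.25 without high-fat replicate 2.

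Apoa4, an apolipoprotein of triglyceride-rich particles, gave 9.79, 8.15, 10.53 and 8.78 on the control arrays and 11.12, 12.62, 11.21 and 11.70 on the high-fat arrays. The controls were widely spread, yet the highest control lay below the lowest high-fat array, and the rise was 5.10-fold (log2 2.35 ± 0.43, limma adjusted p = 0.0418). The call was lost without any 1 of control replicates 1, 2 and 4 and high-fat replicates 2 and 4 (limma adjusted p = 0.0503 to 0.152), and held in the other 3 of 8 such fits. Apart from Apoa4, 0 of the 15 apolipoprotein and lipoprotein genes measured were called. Apoa2 had the same normalised value, 14.68, on all 8 arrays, so its missing call says nothing about a change. Apoa1, Apoc3 and Apoc4 lay just below it, at 14.07 to 14.55, which limits the rise that can be measured. Apoc2, the cofactor of lipoprotein lipase, had a change of 0.64 ± 0.17 (adjusted p = 0.190), and Apom, carried on high-density lipoprotein, had a change of -0.46 ± 0.13 (adjusted p = 0.227). Pltp, which moves phospholipid between lipoproteins, gave 7.36, 5.88, 5.81 and 5.93 on the control arrays and 7.38, 8.96, 8.25 and 8.20 on the high-fat arrays. Control replicate 1 stood apart at nearly the level of high-fat replicate 1, and the change of 1.95 ± 0.55 had an adjusted p of 0.220.

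**Figure D2:**
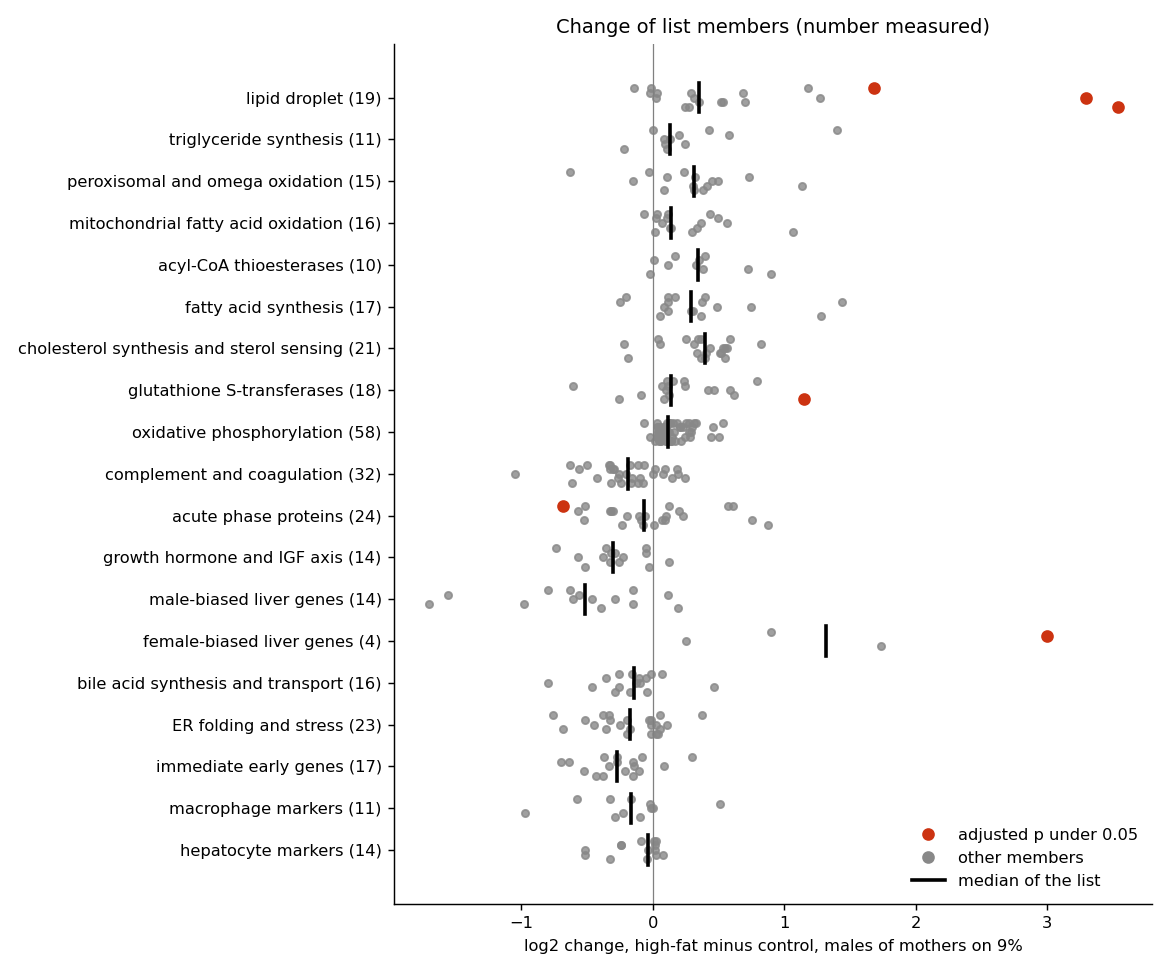
Change of each measured member of 19 gene lists (horizontal axis, log2 high-fat minus control after 9% in males; the number measured follows each name). Red points passed an adjusted p of 0.05, grey points did not, and black bars are list medians, which run from -0.51 for male-biased liver genes to 1.32 for the 4 measured female-biased genes.

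Cyp17a1, the enzyme that makes androgen precursors and one of the genes with higher expression in female mouse liver, gave 5.55, 6.09, 7.58 and 6.14 on the control arrays and 8.21, 9.72, 10.33 and 9.09 on the high-fat arrays. Replicate 3 was the highest array in both groups, and the groups did not overlap. The rise was 7.98-fold (log2 3.00 ± 0.53, limma adjusted p = 0.0369). The call held in only 2 of the 8 fits that left out 1 array, those without control replicate 3 or high-fat replicate 1, and the adjusted p was 0.0778 to 0.152 in the other 6.

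Of 16 female-biased genes listed, 4 were measured, and 1 rose. The cytochrome Cyp2b9 gave 4.50, 4.62, 6.79 and 4.63 on the control arrays and 4.41, 8.85, 6.73 and 7.48 on the high-fat arrays, and the groups overlapped (1.73 ± 0.93, limma adjusted p = 0.554). Control replicate 3 was the highest control for all 4 genes, and high-fat replicate 1 was at the control level for Cyp2b9.

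Of 14 male-biased genes measured, 12 had a change below 0 (median -0.51), 5 with an unadjusted p under 0.05, and 0 were called. Serpina1e, an alpha-1-antitrypsin that has near-identical copies in mouse so that its signal is uncertain, gave 14.30, 14.26, 14.30 and 14.55 on the control arrays and 14.26, 11.42, 13.96 and 11.53 on the high-fat arrays. High-fat replicates 2 and 4 were low and replicates 1 and 3 were near the controls, and the change of -1.56 ± 0.50 had an adjusted p of 0.272. Cyp7b1, an oxysterol hydroxylase of bile acid synthesis, gave 12.67, 12.60, 11.85 and 12.79 on the control arrays and 12.44, 11.20, 11.47 and 11.60 on the high-fat arrays (-0.80 ± 0.28, adjusted p = 0.335). The list's median deviation on the high-fat arrays was 0.08, -0.89, -0.65 and -0.55, so replicate 1 differed from the other three. Sex-biased expression in mouse liver is set largely by the pattern of growth hormone. Of 14 measured genes of the growth hormone and IGF axis 13 had a change below 0 (median -0.30, and -0.19 without control replicate 4) with 0 called. The median of this axis was -0.24 in males after 18% and -0.39 in females after 9%. Whether growth hormone has a part in the changes of sex-biased genes was not tested. Hnf4a, a transcription factor of hepatocyte identity, gave 11.26, 11.21, 11.23 and 11.28 on the control arrays and 10.64, 10.44, 11.00 and 10.83 on the high-fat arrays, with no overlap (-0.52 ± 0.14, adjusted p = 0.217).

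Both glutathione-dependent enzymes that were called rose. Gstt3 (chromosome 10), a theta-class glutathione S-transferase, gave 10.73, 10.63, 10.28 and 10.79 on the control arrays and 11.65, 11.38, 12.08 and 11.92 on the high-fat arrays. The groups were separate, and the rise was 2.22-fold (log2 1.15 ± 0.18, limma adjusted p = 0.0112). Gpx6 (chromosome 13), a glutathione peroxidase known from olfactory tissue, gave 5.72, 4.53, 4.97 and 5.16 on the control arrays, of which 3 detected it, and 6.87, 7.36, 7.42 and 6.23 on the high-fat arrays. Its groups were also separate, and the rise was 3.67-fold (log2 1.88 ± 0.30, adjusted p = 0.0144). The adjusted p of Gpx6 was 0.0679 without control replicate 2 and 0.0664 without high-fat replicate 2.

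Across the glutathione S-transferases 15 of 18 had a change above 0, 5 with an unadjusted p under 0.05 including Gstt3. The median of 0.14 was 0.07 without high-fat replicate 2, and 0.22 to 0.27 without control replicate 3 or high-fat replicate 1, 3 or 4. Gstm2, Gstm4 and Gstt1 had changes of 0.79 ± 0.27, 0.58 ± 0.22 and 0.47 ± 0.14, with limma adjusted p-values of 0.332, 0.362 and 0.227. Gstp1, the pi-class enzyme that is strong in male mouse liver, had a change below 0 on all 3 of its probes. Its brightest probe gave 14.04, 14.35, 13.94 and 14.31 on the control arrays and 13.69, 13.57, 13.26 and 13.72 on the high-fat arrays, without overlap (-0.60 ± 0.13, adjusted p = 0.0900). The other 2 probes had changes of -1.28 ± 0.17 (adjusted p = 0.00478 over all probes) and -1.07 ± 0.19 (adjusted p = 0.0262). Gstp1 has a near-identical neighbour, Gstp2, so the signal of these probes may be shared.

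**Figure D3:**
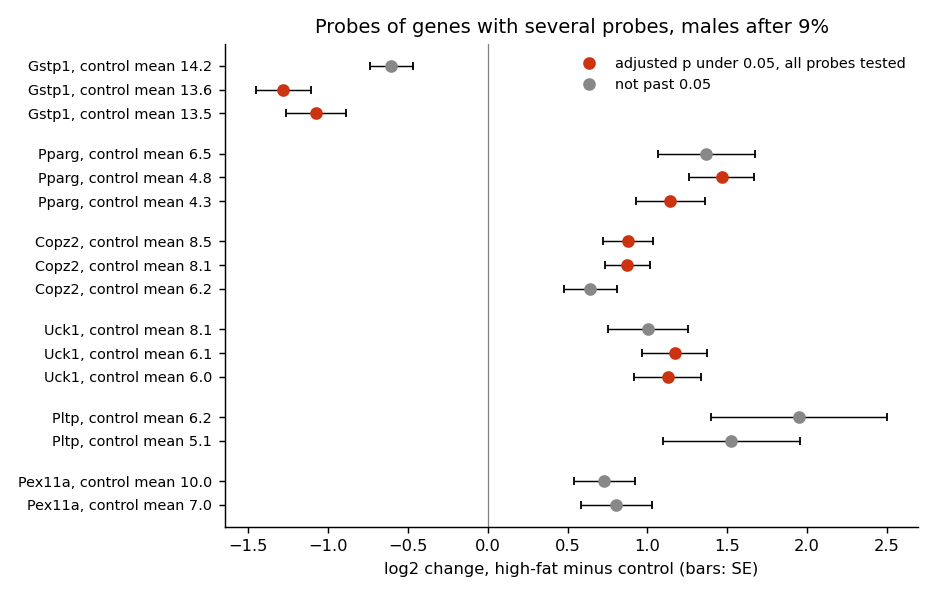
Log2 change (horizontal axis, high-fat minus control after 9% in males) of each probe of 6 genes with several probes; bars are SE, and labels give the mean control log2 intensity. Red probes passed an adjusted p of 0.05 over all 12173 probes; the brightest probe of Gstp1, Pparg and Uck1 is grey while 2 dimmer probes of each are red.

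With every probe a feature, limma called 26 of 12173 probes, 20 higher and 6 lower. Among these were 2 probes of Uck1, a uridine kinase named here after its values were seen, with changes of 1.17 ± 0.20 and 1.13 ± 0.21, while its brightest probe had 1.00 ± 0.25 (adjusted p = 0.148).

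The remaining called genes have other roles. Lamb3 (chromosome 1), a laminin chain of basement membrane, gave 5.43, 5.64, 6.00 and 5.24 on the control arrays and 6.87, 7.72, 7.02 and 6.81 on the high-fat arrays. The groups were separate, and the rise was 2.89-fold (log2 1.53 ± 0.22, limma adjusted p = 0.00666). Copz2 (chromosome 11), a subunit of the COPI vesicle coat, gave 8.60, 8.08, 8.66 and 8.50 on the control arrays and 9.12, 9.63, 9.30 and 9.29 on the high-fat arrays, a rise of 1.84-fold (log2 0.88 ± 0.15, adjusted p = 0.0369). The groups of Copz2 did not overlap, and its 3 probes had changes between 0.64 and 0.88. Its call held without control replicate 3 or high-fat replicate 1 and was lost in the other 6 fits without 1 array (limma adjusted p = 0.0503 to 0.152).

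The feature with the smallest p was the probe ILMN_1230957, which the annotation used here does not name. It gave 4.47, 5.15, 4.52 and 4.52 on the control arrays, of which 1 detected it, and 8.43, 9.42, 8.88 and 8.53 on the high-fat arrays. The lowest high-fat value lay far above the highest control value, and the rise was 17.7-fold (log2 4.15 ± 0.39, limma adjusted p = 6.27e-05). The control level was near background, so the size of the rise is uncertain, and its log2 change ran from 3.02 to 4.36 over the 21 alternatives. It also separated the diets after 18%, at 4.37, 4.61, 4.42 and 4.72 against 9.89, 9.41, 7.94 and 7.58.

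Itih3 (chromosome 14), a heavy chain of the plasma inter-alpha-trypsin inhibitors that bind hyaluronan, was the 1 gene that fell. It gave 12.92, 12.97, 13.02 and 12.82 on the control arrays and 12.41, 12.03, 12.35 and 12.23 on the high-fat arrays. Both groups were narrow and separate, and the fall was 1.60-fold (log2 -0.68 ± 0.12, limma adjusted p = 0.0369). The call of Itih3 was among the least stable: it held in 10 of 21 alternatives and, of the 8 fits without 1 array, only without high-fat replicate 1 or 3 (adjusted p = 0.0549 to 0.152 in the other 6, and 0.184 with median scaling). Of the 24 acute phase genes measured, 1 fell and 0 rose, and the list's median was -0.07, and 0.04 without control replicate 1.

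The next falls by p-value missed the threshold. Adgrf1, an adhesion receptor, had a change of -1.34 ± 0.26 (limma adjusted p = 0.0559) and was detected on all 4 control arrays and 2 high-fat arrays. Slc6a6, the taurine transporter, gave 11.03, 11.44, 10.93 and 11.16 against 10.39, 10.02, 10.36 and 10.72 (-0.77 ± 0.15, adjusted p = 0.0559). Alcam, a cell adhesion molecule, had a change of -0.80 ± 0.17 (adjusted p = 0.0835). C8b, a chain of the complement membrane attack complex, gave 11.21, 11.12, 11.03 and 11.49 against 10.82, 9.42, 10.48 and 9.95 (-1.05 ± 0.22, adjusted p = 0.0900). The groups of these 4 genes did not overlap.

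Complement and coagulation genes, which hepatocytes secrete, had a change below 0 for 24 of 32 members (median -0.19), 8 with an unadjusted p under 0.05 and 0 called. Hc, the gene for complement C5, gave 10.89, 10.81, 10.88 and 10.79 on the control arrays and 10.32, 10.23, 10.37 and 10.42 on the high-fat arrays, tight and separate (-0.50 ± 0.12, limma adjusted p = 0.119). C8a and C2 had changes of -0.56 ± 0.14 and -0.62 ± 0.17. The list's summed level was 111042 to 113907 in the controls and 95161 to 109400 in the high-fat group.

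In ER folding and stress 16 of 23 genes had a change below 0 with 0 called. The median of -0.17 was -0.04 without control replicate 4, -0.03 when high-fat replicate 1 was left out and -0.02 when replicate 3 of that group was. Ero1b, an oxidase of protein folding, had a change of -0.68 ± 0.23 (limma adjusted p = 0.297). Among xenobiotic genes 0 of 28 were called. Aox3, an aldehyde oxidase, gave 12.04, 12.08, 11.96 and 12.04 on the control arrays and 11.36, 10.97, 10.97 and 11.41 on the high-fat arrays, without overlap (-0.86 ± 0.19, adjusted p = 0.0900). Cyp3a11, the main CYP3A enzyme of mouse liver, had a change of -1.51 ± 0.46 (adjusted p = 0.255).

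Markers of other liver cells were measured as well, and 0 of them were called. Of 20 macrophage markers 11 were measured, with a median of -0.17 (-0.04 without control replicate 1 and -0.36 without control replicate 3) and a summed level of 3101 to 7794 in the controls and 3149 to 4543 in the high-fat group. Adgre1, a surface receptor of macrophages, gave 10.09, 8.99, 8.84 and 9.76 against 8.62, 8.93, 8.76 and 9.07, and the groups overlapped. Stellate cell and matrix markers had a median of -0.19 over 14 genes, which was -0.07 without high-fat replicate 3, and lymphocyte markers -0.18 over 8, which was -0.11 without control replicate 1. Endothelial markers had a median of -0.06 over 10 (-0.19 without control replicate 3, -0.0026 without high-fat replicate 3), bile duct markers -0.16 over 6 (-0.29 without high-fat replicate 2, -0.01 without control replicate 4) and neutrophil markers -0.06 over 5, which turned to 0.11 without high-fat replicate 3. Red blood cell markers had a median of 0.20 over 5, with Hba-a1 at 0.57 ± 0.17 and Hbb-bt at 0.65 ± 0.17 (limma adjusted p = 0.244 and 0.176), and a summed level of 6658 to 9041 in the controls and 8067 to 12261 in the high-fat group. Whether these cell types have a part in the changes above was not tested. Lgals1, a galectin of many cell types, gave 7.59, 8.24, 7.92 and 7.75 on the control arrays and 8.59, 10.94, 9.14 and 9.62 on the high-fat arrays, without overlap (1.70 ± 0.40, adjusted p = 0.117).

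Set beside the same diet in males of mothers on 18%, the 11 called features all had the same sign there, and 8 were called there too. The comparison after 18% called 65 features (0.631% of those tested), 50 higher and 15 lower, and 57 of these 65 had the same sign after 9%, against 58.2% of all features. Their median size of change was 0.63 after 9% and 1.02 after 18%. These features were chosen by their p-values after 18%, so both sizes are a description. The 2 comparisons share no arrays, but both used the same estimate of spread for each feature, so the calls in common are not an independent repeat. Their changes correlated at 0.40 across features, which are not independent.

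**Figure D4:**
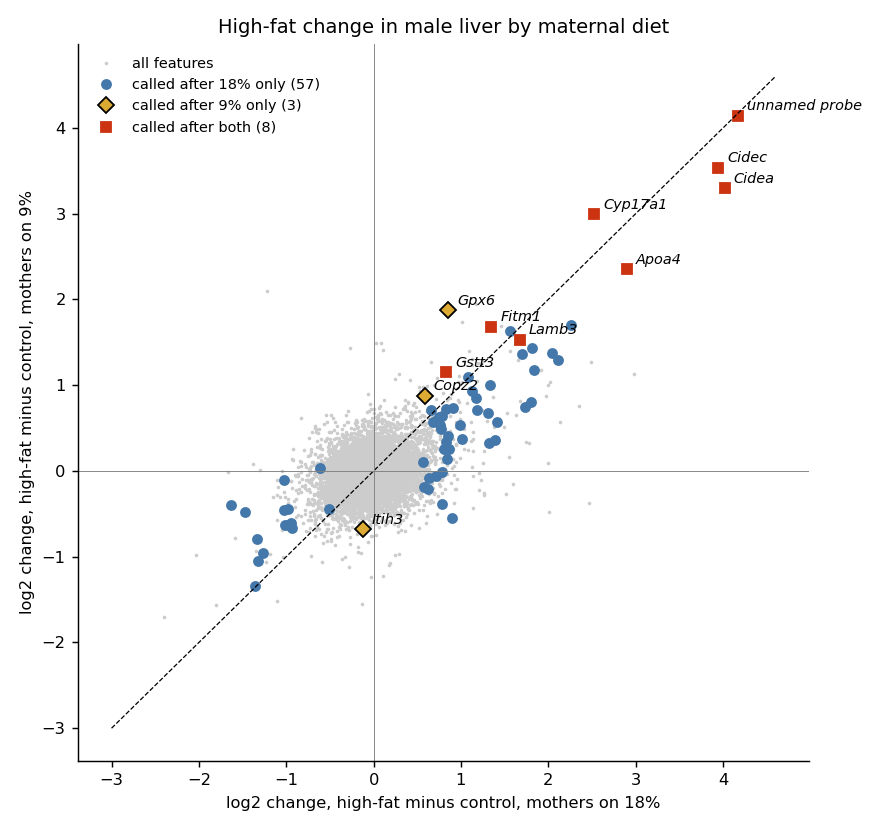
Log2 change with the high-fat diet in males of mothers on 9% (vertical axis) against mothers on 18% (horizontal axis) for 10295 features; the dashed line marks equal changes. Red squares were called after both diets (8), gold diamonds after 9% only (3), and blue circles after 18% only (57).

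The 3 features called after 9% and not after 18% were Gpx6, Copz2 and Itih3. The change of Itih3 was -0.68 after 9% and -0.12 after 18%, where the groups overlapped, and the difference of -0.56 ± 0.17 had an adjusted p of 0.690. The change of Gpx6 was 1.88 after 9% and 0.86 after 18%, a difference of 1.02 ± 0.42 (adjusted p = 0.690). For Copz2 the changes were 0.88 and 0.58. None of these 3 differences between maternal diets was called.

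Over all features limma called 0 differences between the high-fat effect after 9% and after 18%, and 700 features (6.8%) had an unadjusted p under 0.05. The smallest adjusted p was 0.0545 for Stoml2, a mitochondrial membrane protein that was detected on 0 of the 8 arrays of mothers on 9%. After 18% it was detected on 0 control arrays and on all 4 high-fat arrays. Stoml2 thus passed the detection filter only through the group where it was high. The next smallest adjusted p was 0.0927 for Dner, a Notch-related receptor. After 9% its control values were 4.86, 5.24, 5.34 and 5.50 and its high-fat values 4.64, 4.75, 4.73 and 4.62. After 18% its control values were 4.53, 4.52, 4.53 and 4.56 and its high-fat values 5.86, 5.77, 5.12 and 4.97. Dner was thus higher in the controls after 9% and higher in the high-fat group after 18%, in both cases near background.

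Females of mothers on 9% were run on another version of the array and fitted apart. There limma called 406 of 9444 features (4.3%), 230 higher and 176 lower. Of the 11 features called in males 9 were measured in females, and all 9 had the same sign, against 63.7% of the 6940 genes measured in both sexes. In females 7 of the 9 were called: Cidec (2.22), Apoa4 (2.27), Lamb3 (1.62), Cyp17a1 (1.24), Fitm1 (1.09), Gstt3 (0.93) and Itih3 (-0.82), each given as its log2 change. Copz2 had 0.40 (limma adjusted p = 0.0854) and Gpx6 had 0.19 (adjusted p = 0.630).

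The male effect minus the female effect was called for 0 of 6940 genes, with 524 (7.55%) at an unadjusted p under 0.05. The smallest adjusted p was 0.132, shared by Gpx6 (1.69 ± 0.36 higher in males), Lmo4, a LIM-domain regulator (-0.92 ± 0.19), and Oscar, an osteoclast receptor (-1.11 ± 0.24).

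Clock genes differed widely among arrays of the same group, although 0 of the 12 measured had an unadjusted p under 0.05 between the diets. Dbp, an output gene of the clock, gave 10.48, 10.54, 11.69 and 5.76 on the control arrays and 11.28, 7.65, 11.08 and 8.97 on the high-fat arrays. Arntl, a core activator of the clock that peaks at the opposite phase, gave 6.03, 6.63, 4.53 and 7.99 against 5.29, 7.17, 4.91 and 7.37. Control replicate 4 was thus lowest for Dbp and highest for Arntl, and control replicate 3 the reverse. Per2 and Tef, which follow Dbp in phase, were also lowest on control replicate 4 within the controls, at 7.06 and 7.92. In every male group Dbp minus Arntl was higher on replicates 1 and 3 than on replicates 2 and 4. After 9% it was 4.45, 3.91, 7.16 and -2.23 in the controls and 5.99, 0.48, 6.17 and 1.6 in the high-fat group. After 18% it was 7.07, 5.01, 7.35 and -1.26 against 5.71, 2.32, 6.31 and 5.62. The labels give no time of collection, and whether the numbers mark a shared order was not tested. With Dbp minus Arntl as a covariate, an alternative chosen after seeing the data, limma called 22 features, 17 higher and 5 lower, and all 11 described above were among them.

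**Figure D5:**
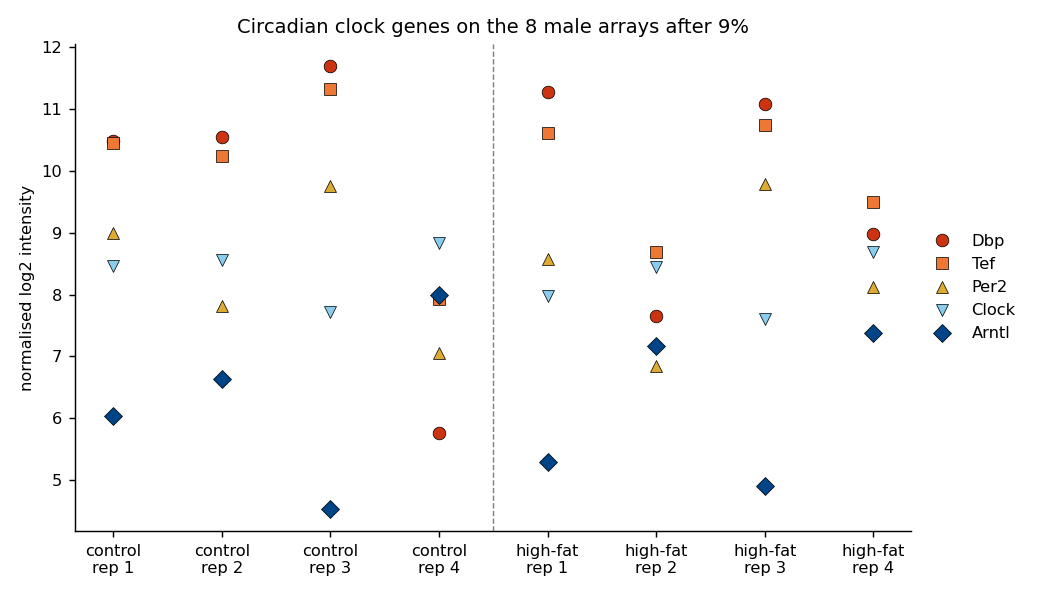
Normalised log2 intensity (vertical axis) of 5 clock genes on the 8 male arrays after 9% (horizontal axis, control arrays left of the dashed line). Dbp and Tef are low and Arntl is high on control replicate 4, with the reverse on control replicate 3, and both groups hold such contrasts.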

How the data were processed

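The deposited table used for the main results holds background-subtracted intensity per probe and array, not normalised between arrays, with a detection p-value per probe and array, per the file headers. An alternative used the other deposited table, whose intensity values are quantile-normalised. Per the submitters' processing notes BeadStudio was used; its version, its settings, the slide and the scan are not stated in the labels. The array annotation named 20984 of 24613 male probes with 1 symbol.

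Normalisation of the 16 male arrays used neqc of limma 3.58.1 (R 4.3.3), which inferred negative controls from detection p, with offset 16. A probe was kept if detection p was under 0.05 on 4 or more of these arrays, with 1 probe per gene (highest mean); unnamed probes stayed single. The 4 male groups were fitted together with lmFit and eBayes (intensity trend), two-sided, with Benjamini-Hochberg adjustment at 0.05 over all features. The difference between sexes was the difference of both estimates over its standard error, with Welch-Satterthwaite degrees of freedom. Where 0 arrays of the dimmer group detected a probe, the fold is a bound: the mean of the brighter group is set against the dimmer group's arrays, each taken at its own value or at its weakest detected signal, whichever is larger (log2 scale). Only 4 arrays per group limit the precision. The procedure was tested on simulated data. Plots used matplotlib 3.10.9 (Python 3.11.15).

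Genes named were those called, the 5 smallest p-values in a direction with fewer than 5 calls, the leading member of each gene list, 9 genes looked up always, and the 3 smallest p-values for each difference of effects. Other list members, and Uck1, were named after their values were seen. The comparison and the lists were chosen with earlier results of these data known.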

Additional observations from a re-analysis of the deposited data

Results flagged for a closer look

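The following arrays stood apart from the other 3 of their group by Dixon's test, in 3 of 118 groups of 4 checked, where chance alone would give about 5.9 at 1 in 20. High-fat replicate 2 had 10.54 for Cidea (log2 intensity), against 6.81 to 7.11 on the other high-fat arrays. Control replicate 1 had 7.36 for Pltp, against 5.81 to 5.93 on the other controls. Control replicate 2 had 5.15 for the unnamed probe ILMN_1230957, against 4.47 to 4.52. High-fat replicate 2 was the highest array for 7 of the 10 features that rose and replicate 3 for the other 3.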

How the results depend on the processing

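The 11 calls of high-fat against control became 1 with the arrays of mothers on 9% alone, 26 with array weights, 26 with every probe a feature, 7 with mean raw intensity as a covariate, 47 at an adjusted p under 0.10 and 22 with Dbp minus Arntl as a covariate, the last 2 chosen after seeing the data. Leaving out 1 array gave 7 to 22 calls: 7 without control replicate 2, control replicate 4 or high-fat replicate 2, and 22 without control replicate 3. The authors' normalised table gave 13 and the other scalings, filters and the fit without an intensity trend 9 to 13. The unnamed probe passed in all 21 alternatives, Cidec, Fitm1 and Lamb3 in 20, Gstt3 in 19, Gpx6 in 18, Cidea, Apoa4 and Cyp17a1 in 12, Copz2 in 11 and Itih3 in 10; the cause was not tested. For the difference between maternal diets, 0 calls became 3 with the authors' table, 3 with quantile normalisation alone, 2 with median scaling, 1 with no detection filter, 1 with array weights and 2 with mean raw intensity as a covariate; leaving out 1 array gave 0 to 4 (4 without high-fat replicate 4 after 18%). For males minus females, 0 became 1 with every probe a feature, and 0 to 2 on leaving out 1 array (2 without male high-fat replicate 4). Signs turned for 3 named genes that were not called: the log2 change of Hspa9 was -0.0229 with median scaling, the log2 change of Nr1d2 was -0.0043 with mean raw intensity as a covariate, and the log2 change of Fasn ran from -0.1405 (without control replicate 2) to 0.3995 (without control replicate 1). Among the other values of named genes 1132 stayed on their side of the threshold with the same sign, 16 newly passed and 56 no longer passed. Replicate numbers were not taken to pair the samples, because the labels name nothing shared. The deviations of arrays with the same number correlated at 0.10, -0.04, 0.47 and 0.20. Among the controls 2 of 4 correlated best with their own number. The clock contrast Dbp minus Arntl did follow the replicate number in every male group, and whether the numbers mark a shared order was not tested. With the replicate block there were 11 calls, 8 of them shared; Cidea, Apoa4 and Copz2 were not among them. Levels near background, as for the controls of the unnamed probe and Cidea, the dimmer Pparg probes, Gpx6, Dner and Stoml2, limit the size of change that can be measured. So do levels at the top of the scale, as for Apoa2. With 4 arrays a group, a p that missed the threshold does not show that groups are alike.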

Other observations

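Other gene groups held no call. Of 21 interferon response genes 13 had a change below 0 (median -0.13, but 0.04 without control replicate 1), 5 of them with an unadjusted p under 0.05. Irf5, an interferon regulatory factor, gave 7.55, 7.38, 7.28 and 8.27 on the control arrays and 7.11, 6.07, 6.67 and 6.38 on the high-fat arrays, without overlap (-1.06 ± 0.28, limma adjusted p = 0.176). All 7 measured insulin signalling genes had a change below 0 after 9%, with a median of -0.22 that was -0.01 without high-fat replicate 3. In males after 18% the median was 0.19, with 5 of 7 above 0. In females after 9% it was -0.02, with 1 of 7 above 0. The kinase Akt2 had a change of -0.29 ± 0.11 in males after 9% (limma adjusted p = 0.366).

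Immediate early genes, which respond within minutes to handling and other stimuli, had a median change of -0.27 after 9%, with 15 of 17 below 0. The median turned to 0.11 without high-fat replicate 1 and was -0.55 without control replicate 3, so it has no settled direction. Their list median varied by 0.53 (SD) between arrays of a group, which is wider than the median change after 9%. Cyp26a1, which degrades retinoic acid, had a change of 1.49 ± 0.30 after 9% (adjusted p = 0.0686) and 0.03 after 18%, and was named after its values were seen.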
